A study of Mus musculus with 6 samples.

Results

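The nuclear-encoded subunits of oxidative phosphorylation were examined in dividing cells of the embryonic mouse cortex. Members were chosen by name: non-control array probes whose RefSeq mRNA accession maps to a symbol starting with Nduf, Uqcr or Atp5, or with Cox followed by 4, 5, 6, 7 or 8, together with Sdha, Sdhb, Sdhc, Sdhd, Cyc1 and Cycs. This gave 95 genes on 128 probes, of 19988 named genes on 55681 probes in all. These were 36 subunits of complex I, 8 Ndufaf genes, 4 subunits of complex II, 9 of complex III, cytochrome c, 20 genes grouped with complex IV and 17 of complex V. The Ndufaf genes encode factors that build or modify complex I and are not subunits of it, so the name subunits does not hold for these 8. Ndufa4 was counted with complex IV, where its protein is now placed, and its paralog Ndufa4l2 with it.

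Oxidative phosphorylation makes ATP at the inner mitochondrial membrane. Complex I takes electrons from NADH and complex II from succinate, complex III passes them to cytochrome c, complex IV hands them to oxygen, and complex V uses the resulting proton gradient to make ATP. In the developing cortex, neural progenitors rely heavily on glycolysis, and mitochondrial respiration is known to gain weight as cells become neurons.

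The arrays compared Tis21-GFP positive S-phase cells (3 arrays) with Tis21-GFP negative S-phase cells (3 arrays). Both came from the dorsal telencephalon of C57BL/6J embryos at embryonic day 14.5, all carrying 1 Tis21-GFP knock-in allele, bred from homozygous males and wild-type females. Tis21 (Btg2) is switched on in progenitors that are about to divide into neurons. Cells were stained alive for DNA, and those part-way through copying it were sorted. Each replicate pooled 30 hemispheres of 15 embryos and about 200000 cells per fraction, and the authors kept the 3 best of 4 experiments by a rule not given in the sources used here. The negative fraction is defined only by the absence of GFP, so it can hold any other cell in S phase.

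Btg2 itself was higher in positive cells, by 0.77 ± 0.17 on the log2 scale (limma adjusted p = 0.0139). The marker lists below were chosen with earlier results of these data known. All 10 intermediate progenitor markers tested, Btg2 among them, were higher in positive cells (median log2 difference 2.57). Of 11 radial glia markers 10 were lower (median -1.35). Markers of other cell types were lower as well: 11 of 11 of microglia (summed linear level, in units of each array's 75th percentile, 4.34 to 7.93 on positive arrays and 14.5 to 19.0 on negative arrays), 10 of 10 of meninges and mesenchyme (13.8 to 21.9 and 47.5 to 50.5) and 6 of 9 of endothelium and pericytes (9.6 to 10.6 and 8.78 to 9.81). The summed endothelial and pericyte level thus ran opposite to that count. These sums mix probes and weigh most on the brightest gene of the list. For microglia, mesenchyme and endothelium that was Csf1r (difference -0.90), Fn1 (-1.10) and Kdr (0.45 ± 0.14, not passing). The medians of these lists were -2.34, -2.82 and -1.54. Markers of red blood cells had summed levels of 27.1 to 74.5 and 47.7 to 82.8, and 1 of 8 was lower. Of neuron markers 5 of 12 were higher and 4 lower (176.0 to 214.0 and 122.0 to 167.0), and of interneuron markers 2 of 7 were lower (6.37 to 8.04 and 7.57 to 13.2). P2ry12, Col3a1, Lum, Pdgfra, Pdgfrb, Rgs5, Abcc9 and Cspg4 were well above background on 0 positive arrays. They entered the test only through the negative arrays, as did Cx3cr1, Mrc1, Col1a1, Nid1, Flt1 and Gad1. A lower call for such genes partly follows from the filter. Of the 12 genes listed each, Ptprc (microglia), Foxc1 and Twist1 (mesenchyme) and Cdh5, Tek and Kcnj8 (endothelium and pericytes) were not tested. The part of these cells in the results below was not tested, and in sorted bulk RNA a smaller share of cells and less RNA per cell cannot be told apart.

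Signals are given on a log2 scale after subtracting each array's 75th percentile, so 0 is the level of the 75th percentile probe. Apart from the summed marker levels above, they are compared only within a probe. A gene was called when its adjusted p was below 0.05 in limma over all 13140 tested genes, each represented by its brightest probe. Of the 95 members, 91 passed the filter, which asked for signal well above background on each array of a group, in either group. The other 4, Cox6a2, Cox7b2, Cox8b and Cox8c, were well above background on 0 arrays. All are isoforms known from heart and skeletal muscle (Cox6a2, Cox8b) or testis (Cox7b2, Cox8c).

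Respiratory chain genes as a group had slightly higher signals in positive cells. Their median difference was 0.36 on the log2 scale (1.28-fold, median SE 0.14, n = 3 per group) against 0.12 for all tested genes. Of the 91 tested members, 16 (17.6%) were called higher and 0 lower by limma, where 12.8% of all genes were called higher and 13.1% lower. At an unadjusted p below 0.05, 44 members and 23.2% of all genes were higher. Every positive array lay above every negative array for 54 members (59.3%), a pattern shown by 28.2% of all genes. The difference was positive for 86 members and for 60.2% of all genes. The largest difference was 0.69 for Cox5b. In the plot of complex medians by array, the positive arrays lay above the negative ones for complexes I, III, IV and V. The negative array of replicate 2 was the highest of its group for each complex. Both patterns also held, at smaller size, for all tested genes. Their medians were 0.05, 0.10 and 0.01 on the positive arrays and -0.09, 0.00 and -0.07 on the negative arrays. For 25 members several probes passed the filter, with a median spread of 0.11 between the probes of a gene. Their signs differed for Ndufaf4 and Ndufv3, and 0 genes had probes called in opposite directions.

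**Figure D1:**
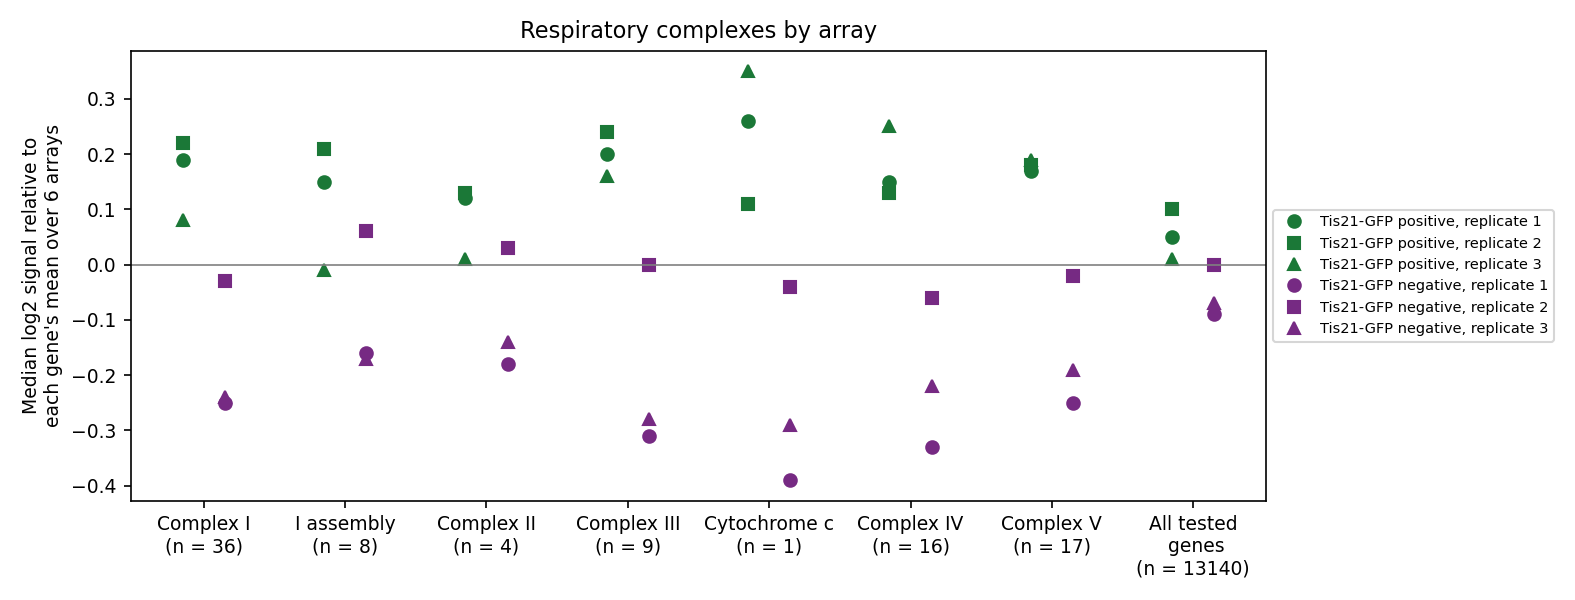
Median over the measured members of each complex of the log2 signal relative to each gene's mean over the 6 arrays, for Tis21-GFP positive (green) and negative (purple) arrays; the marker shape gives the replicate. For complex III the positive arrays lie at 0.20, 0.24 and 0.16 and the negative arrays at -0.31, 0.00 and -0.28, whereas for all tested genes the values run between -0.09 and 0.10.

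These counts depended on signal strength and on the scaling of the arrays. Most members are read by bright probes, and differences in all genes were larger at bright probes. Among the 1249 genes with a mean scaled signal of 4 to 6, the median difference was 0.30 and 22.9% were called higher. The 54 members in that range had a median of 0.38, and 12 of them were called. Of these 54, 34 lay above the median of their range. The share of members called was thus close to that of other genes of like signal. With quantile normalization the dependence on signal was small (0.03 for all genes in that range and 0.10 for members), and 0 of 91 members were called by limma, as with the authors' processed values (0), where 8.52% of all genes were called higher. The median of all genes itself moved with the scaling, to 0.297 with median centring and to -0.058 with a 75th percentile of the probes detected on all 6 arrays. Relative to that median, the members stood at 0.24 in the main scaling, 0.24 with median centring and 0.23 with the percentile over detected probes. They stood at 0.09 with quantile normalization, 0.08 with normexp background correction followed by quantile normalization, and 0.08 with the authors' values.

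**Figure D2:**
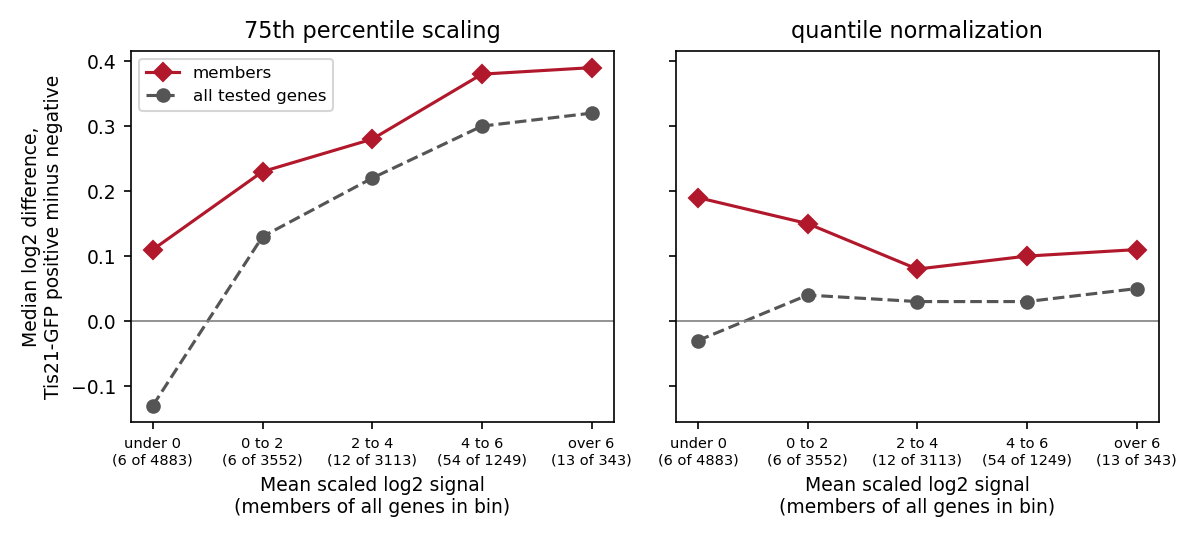
Median log2 difference (Tis21-GFP positive minus negative) by mean scaled log2 signal of the probe, for the members (red diamonds) and all tested genes (grey circles), with the 75th percentile scaling on the left and quantile normalization on the right. On the left both lines climb with signal, from 0.11 to 0.39 for members and from -0.13 to 0.32 for all genes; on the right the members lie between 0.08 and 0.19.

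The same-numbered arrays of both groups resembled each other, so each number was read as a pair. The median difference of the members within pairs was 0.45, 0.23 and 0.34 for replicates 1, 2 and 3, beside 0.14, 0.10 and 0.08 for all genes. The positive array was the higher one in all 3 pairs for 70 members, and for 40.3% of all genes. With the replicate block 18 members were called higher, against 15.4% of all genes, and 14 of the 16 members called without it were among them. Leaving out 1 array changed the number of members called. With Tis21-GFP positive replicate 1, 2 or 3 left out, the number was 2, 7 or 8, beside 1058, 1251 or 1729 of all genes. With Tis21-GFP negative replicate 1, 2 or 3 left out, it was 1, 14 or 1.

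**Figure D3:**
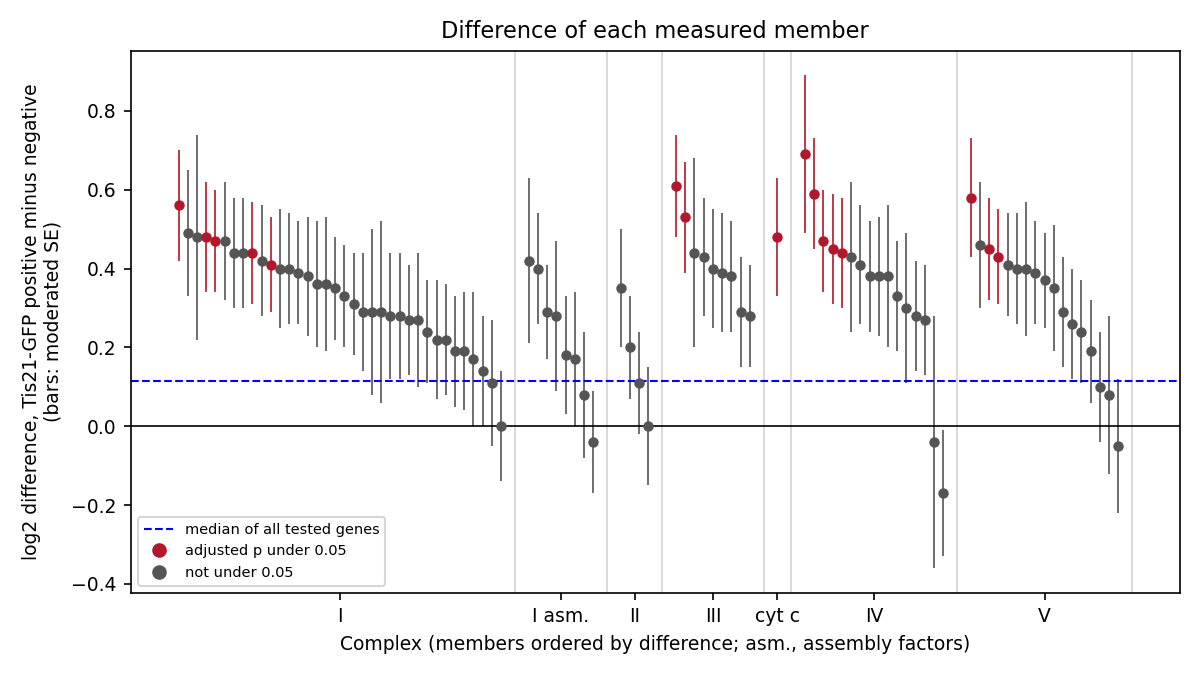
The log2 difference (Tis21-GFP positive minus negative) of each of the 91 measured members with its moderated SE (n = 3 arrays per group, except Ndufa1 and Ndufb2), grouped by complex and ordered by size. Red points have an adjusted p below 0.05, and the dashed line is the median of all tested genes; 86 of the 91 points lie above 0.

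Complex I, the entry point for NADH, had 36 measured subunits with a median difference of 0.34 (range 0.00 to 0.56). Of these, 5 were called higher and 0 lower, 35 had a positive sign and 20 did not overlap between groups. The share called, 13.9%, was close to the 12.8% of all genes, of which 60.2% had a positive sign and 28.2% did not overlap in that direction. Of all genes with a mean scaled signal of 4 to 6, 22.9% were called higher. The 7 core subunits, which carry the flavin and iron-sulfur clusters, had a median of 0.36 with 1 call. The 29 accessory subunits, which surround and stabilise the core, had a median of 0.31 with 4 calls. The gap between these medians was smaller than the SE of a single gene and was not tested. With the replicate block 8 complex I genes were called, beside 15.4% of all genes.

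Ndufs1 is the largest core subunit and holds several of the iron-sulfur clusters. Its scaled log2 signal was 4.49, 4.49 and 4.60 on the positive arrays and 4.03, 4.15 and 4.17 on the negative arrays. The groups did not overlap, and the difference was 0.41 ± 0.12 (SE, n = 3 per group, limma adjusted p = 0.0437). Ndufc1, a small accessory subunit of the membrane arm, had 5.41, 5.35 and 5.48 on the positive arrays and 4.78, 5.05 and 4.73 on the negative arrays. Its difference of 0.56 ± 0.14 was the highest of the complex (limma adjusted p = 0.0218). The accessory subunit genes Ndufa2, Ndufa6 and Ndufs6 differed by 0.48 ± 0.14, 0.47 ± 0.13 and 0.44 ± 0.13. Without Tis21-GFP positive replicate 1, negative replicate 1 or negative replicate 3, none (0) of the 5 was called, at differences of 0.41 to 0.56, 0.37 to 0.52 and 0.36 to 0.50. Ndufc1 alone was called without positive replicate 2 (5 differences of 0.41 to 0.59), Ndufa6 and Ndufc1 without positive replicate 3 (0.38 to 0.55), and Ndufa2 and Ndufc1 without negative replicate 2 (0.43 to 0.66).

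Among the complex I genes that were not called, Ndufc2, which lies next to Ndufc1 in the membrane arm, had 5.95, 5.95 and 5.99 on the positive arrays and 5.78, 6.11 and 6.00 on the negative arrays. The positive values fell inside the negative range, and the 95% interval of the difference ran from -0.32 to 0.31. Ndufb11 was read by probes that disagreed in size, with differences of 0.14 and 0.87, of which the larger one was called. The Ndufa1 probe had no usable spot on negative replicate 2 and the Ndufb2 probe none on positive replicate 2, so both were fitted on 5 arrays, with differences of 0.38 ± 0.15 and 0.48 ± 0.26.

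The 8 Ndufaf genes had a median difference of 0.23 and a range of -0.04 to 0.42. By limma 0 were called, and 2 were higher at an unadjusted p below 0.05. Of all genes, 12.8% were called higher and 23.2% were higher at that unadjusted p. Ndufaf6 had 1.28, 1.28 and 1.28 on the positive arrays and 0.76, 1.12 and 0.77 on the negative arrays, a difference of 0.40 ± 0.14 that did not pass (limma adjusted p = 0.0763). Ndufaf2, which acts late in the building of complex I, had 2.79, 2.94 and 2.83 on the positive arrays and 2.57, 2.57 and 2.55 on the negative arrays, a difference of 0.29 ± 0.12 (limma adjusted p = 0.112). The groups did not overlap for either gene, a pattern shown by 28.2% of all genes. Ndufaf5 lay at -0.04 ± 0.13, and its other probe at -0.24.

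Complex II, which is also the succinate dehydrogenase of the citric acid cycle, had a median of 0.16. By limma 0 of its 4 genes were called (0 at an unadjusted p below 0.05), beside 12.8% (23.2%) of all genes higher. Sdha, the flavoprotein, had 4.52, 4.45 and 4.37 on the positive arrays and 4.42, 4.38 and 4.20 on the negative arrays. Sdhb, the iron-sulfur subunit, had 5.92, 5.76 and 5.66 on the positive arrays and 5.27, 5.66 and 5.36 on the negative arrays, a difference of 0.35 ± 0.15 (limma adjusted p = 0.128). Of the membrane anchors, Sdhc had 3.43, 3.48 and 3.38 on the positive arrays and 3.12, 3.33 and 3.25 on the negative arrays. Sdhd had 4.33, 4.39 and 4.14 on the positive arrays and 4.13, 4.45 and 4.27 on the negative arrays, with a difference of 0.00 ± 0.15 and a 95% interval from -0.33 to 0.34. Only Sdhc showed no overlap between groups among the 4, and the median of the complex was negative with quantile normalization (-0.09), the authors' processed values (-0.09) and the percentile over detected probes (-0.02).

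Complex III, the cytochrome bc1 complex, had a median of 0.40 over 9 genes (range 0.28 to 0.61). All 9 had the higher value in the positive array of each pair, and 8 of 9 did not overlap between groups, beside 40.3% and 28.2% of all genes. These shares of all genes were not split by signal. Uqcr10, a small subunit of the complex, had the lowest adjusted p of all members. Its signal was 4.89, 5.01 and 4.88 on the positive arrays and 4.38, 4.21 and 4.35 on the negative arrays. The difference was 0.61 ± 0.13 (1.53-fold, limma adjusted p = 0.0108, range over the alternatives 0.00175 to 0.108). It was called in 13 of 15 alternatives, the exceptions being quantile normalization and the authors' processed values, and its 3 probes ran from 0.31 to 0.61, of which 1 was called. Cyc1, which encodes the cytochrome c1 that feeds cytochrome c, had 5.47, 5.69 and 5.44 on the positive arrays and 4.91, 5.17 and 4.93 on the negative arrays, a difference of 0.53 ± 0.14 (limma adjusted p = 0.029). Cyc1 was not called without Tis21-GFP positive replicate 1 (0.56), positive replicate 2 (0.46), negative replicate 1 (0.49) or negative replicate 3 (0.50). The Rieske protein gene Uqcrfs1 and the core protein genes Uqcrc1 and Uqcrc2 stood at 0.39 ± 0.15, 0.44 ± 0.24 and 0.28 ± 0.13 and did not pass, although Uqcrc1 passed with the replicate block.

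Cytochrome c (Cycs) carries electrons between complexes III and IV and also starts the caspase cascade when released into the cytosol. Its signal was 5.34, 5.19 and 5.43 on the positive arrays and 4.69, 5.04 and 4.78 on the negative arrays, with no overlap. The difference was 0.48 ± 0.15 (limma adjusted p = 0.0456), and its 3 probes gave 0.40 to 0.48. The pair of replicate 2 differed by 0.15 and those of replicates 1 and 3 by 0.65 and 0.64. The call was lost with the replicate block, and without Tis21-GFP positive replicate 1 (0.47), positive replicate 3 (0.43), negative replicate 1 (0.41) or negative replicate 3 (0.46).

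Complex IV, cytochrome c oxidase, had 16 measured genes with a median of 0.38, and 5 (31.2%) were called higher, beside 12.8% of all genes. Of all genes with a mean scaled signal of 4 to 6, 22.9% were called higher. The 5 called members encode subunits around the catalytic core, which itself is encoded by mitochondrial DNA. Cox7a2, the widely expressed form of subunit 7a, had 5.47, 5.43 and 5.57 on the positive arrays and 4.76, 5.05 and 4.87 on the negative arrays. Its difference was 0.59 ± 0.14 (1.51-fold, limma adjusted p = 0.0159), and it was called in 10 of 15 alternatives. Cox5b, which binds zinc on the matrix side, had 4.99, 5.27 and 4.98 on the positive arrays and 4.24, 4.81 and 4.10 on the negative arrays, a difference of 0.69 ± 0.20 (limma adjusted p = 0.0404). The negative array of replicate 2 was the highest of its group for both genes. Cox6b1, Cox5a and Cox8a differed by 0.47 ± 0.13, 0.45 ± 0.14 and 0.44 ± 0.14. Of the 5 calls, 0 were left without Tis21-GFP negative replicate 1 (0.36 to 0.62) and 0 without negative replicate 3 (0.40 to 0.58). Cox7a2 was the only one of them called without positive replicate 1 (0.40 to 0.74) and without positive replicate 3 (0.42 to 0.74), Cox5a and Cox7a2 were called without positive replicate 2 (0.41 to 0.62), and Cox5b, Cox6b1 and Cox7a2 without negative replicate 2 (0.50 to 0.91). Cox5a was not called with the replicate block.

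Tissue-restricted isoforms of complex IV were compared with their common counterparts only in their differences. Cox4i1, the common form of subunit 4, had 6.35, 6.63 and 6.36 on the positive arrays and 6.02, 6.16 and 6.03 on the negative arrays, a difference of 0.38 ± 0.14 (limma adjusted p = 0.0775). Cox4i2, a form induced by low oxygen in other tissues, had -1.24, -1.71 and -1.35 on the positive arrays and -1.22, -1.36 and -1.22 on the negative arrays. Its difference was -0.17 ± 0.16 (limma adjusted p = 0.458, 95% interval -0.53 to 0.20). Cox7a1, the heart and muscle form, and Cox6b2, known from testis, were well above background on all 6 arrays and differed by 0.27 ± 0.14 and 0.38 ± 0.18 without passing. Cox6a1, the common form of subunit 6a, stood at 0.33 ± 0.14. Ndufa4 differed by 0.38 ± 0.15. Ndufa4l2 ranged from -2.50 to -1.47 on the positive arrays and from -2.43 to -1.45 on the negative arrays, with a 95% interval of -0.77 to 0.69.

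Complex V, the ATP synthase, had 17 measured genes with a median of 0.37 (range -0.05 to 0.58), 3 of them (17.6%) called higher, beside 12.8% of all genes. Of all genes with a mean scaled signal of 4 to 6 and over 6, 22.9% and 19.2% were called higher. The share in complex V was thus not above that of genes of like signal. The 3 called genes, Atp5l, Atp5md and Atp5k, encode the g subunit, the protein DAPIT and the e subunit, small membrane proteins known to join ATP synthase monomers into dimers. Atp5l had 5.97, 5.90 and 6.16 on the positive arrays and 5.39, 5.63 and 5.26 on the negative arrays, a difference of 0.58 ± 0.15 (limma adjusted p = 0.0259), and 4 of its 5 probes were called higher, over a range of 0.26 to 0.70. Atp5md had 5.72, 5.70 and 5.73 on the positive arrays and 5.26, 5.30 and 5.29 on the negative arrays, with SDs of 0.02 in both groups and a difference of 0.43 ± 0.12 (limma adjusted p = 0.0306). Atp5k differed by 0.45 ± 0.13 (limma adjusted p = 0.0414). None (0) of the 3 was called without Tis21-GFP positive replicate 1 (0.43 to 0.60), positive replicate 3 (0.43 to 0.51), negative replicate 1 (0.36 to 0.56) or negative replicate 3 (0.44 to 0.50). Without positive replicate 2 Atp5l and Atp5md were called (0.44 to 0.64), and without negative replicate 2 Atp5l was (0.44 to 0.68).

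The catalytic head of complex V was not called. Atp5a1, the alpha subunit, had 6.13, 6.13 and 5.68 on the positive arrays and 5.95, 6.19 and 5.96 on the negative arrays, a difference of -0.05 ± 0.17 (95% interval -0.44 to 0.34). Atp5b, the beta subunit that carries the catalytic sites, had 7.45, 7.56 and 7.43 on the positive arrays and 7.14, 7.34 and 7.25 on the negative arrays. The groups did not overlap for Atp5b, but the difference of 0.24 ± 0.13 did not pass (limma adjusted p = 0.20). The stalk subunit genes Atp5c1, Atp5d and Atp5e stood at 0.19 ± 0.13, 0.26 ± 0.14 and 0.41 ± 0.13. The genes Atp5g1, Atp5g2 and Atp5g3, which encode the same c subunit of the rotor ring with different import peptides, stood at 0.10 ± 0.14, 0.40 ± 0.17 and 0.08 ± 0.20. Atp5g3 overlapped between groups, ranging from 5.67 to 6.32 on the positive arrays and from 5.83 to 6.17 on the negative arrays. Differences between these members were not tested.

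**Figure D4:**
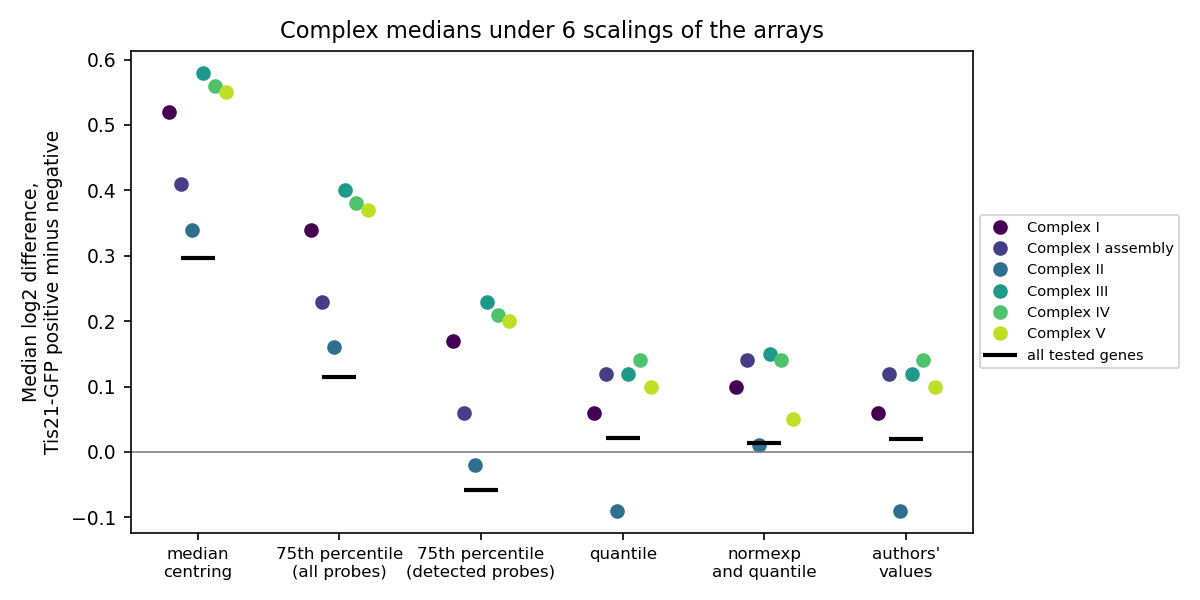
Median log2 difference (Tis21-GFP positive minus negative) of the measured members of each complex (coloured points) and of all tested genes (black bars) under 6 scalings of the arrays. Complexes I, III, IV and V and the Ndufaf genes lie above the bar in all 6 scalings and above complex II in all 6. Complex II reaches -0.09 with quantile normalization.

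Promoter letters were read for the 77 members that the RefSeq promoter table lists (build GRCm38.p6), in the 250 bases before the start of the gene. Many respiratory genes are known to be driven by NRF1 and by ETS-family factors such as GABP. The NRF1 letters (GCGC, any base, TGCGC), on either strand, were found in 18.3% of 82 member promoters and in 3.74% of all 32851 promoters, and a shorter form, GCATGCGC, which can overlap it and was chosen after sequences were seen, in 12.2% and 2.26%. The ETS letters CCGGAAG were found in 17.1% and 6.91%, the YY1 letters AAGATGGC in 1.22% and 1.56%, and CCAAT in 43.9% and 33.8%. The 28 tested members with NRF1, ETS or YY1 letters had a median difference of 0.35 with 6 called. The 47 without them had a median of 0.36 with 7 called. Of all tested genes 12.8% were called higher, and of those with a mean scaled signal of 4 to 6, 22.9%. The split by letters was not tested. The following promoters, 5′ to 3′ on the gene's strand, contrast the member with the lowest adjusted p (Uqcr10), 2 called members with the short NRF1 letters and a complex II gene near 0 (Sdhd). Capitals mark the NRF1 letters in either form and the ETS letters.
Uqcr10, chr11:4704345-4704594, minus strand: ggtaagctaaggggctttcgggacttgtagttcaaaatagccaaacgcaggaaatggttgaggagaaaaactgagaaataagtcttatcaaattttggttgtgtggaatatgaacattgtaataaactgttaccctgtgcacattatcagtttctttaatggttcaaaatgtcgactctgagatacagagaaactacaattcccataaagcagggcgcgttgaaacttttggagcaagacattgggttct
Cycs, chr6:50566570-50566819, minus strand: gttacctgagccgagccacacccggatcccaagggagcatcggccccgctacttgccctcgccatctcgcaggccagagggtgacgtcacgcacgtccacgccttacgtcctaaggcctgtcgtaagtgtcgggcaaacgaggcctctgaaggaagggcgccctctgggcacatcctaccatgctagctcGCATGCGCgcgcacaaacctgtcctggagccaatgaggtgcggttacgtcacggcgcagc
Atp5l, chr9:44920743-44920992, minus strand: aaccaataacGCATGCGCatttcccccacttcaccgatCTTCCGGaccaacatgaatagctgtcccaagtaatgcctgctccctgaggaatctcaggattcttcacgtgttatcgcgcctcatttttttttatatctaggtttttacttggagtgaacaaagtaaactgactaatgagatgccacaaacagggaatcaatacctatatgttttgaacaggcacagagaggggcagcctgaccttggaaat
Sdhd, chr9:50603850-50604099, minus strand: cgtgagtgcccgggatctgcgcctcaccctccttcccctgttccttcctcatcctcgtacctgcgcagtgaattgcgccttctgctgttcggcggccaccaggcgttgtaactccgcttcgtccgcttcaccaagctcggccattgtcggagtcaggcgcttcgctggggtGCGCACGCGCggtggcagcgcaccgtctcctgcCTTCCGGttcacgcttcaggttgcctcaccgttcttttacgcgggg
Uqcr10 holds none of the searched NRF1, ETS or YY1 letters in this window. Cycs holds the short NRF1 letters 60 bases before the start, Atp5l holds them at 240 bases and ETS letters at 212, and Sdhd holds the full NRF1 letters at 79 and ETS letters at 46. A match of letters is a description and not a bound site.

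Of 20 citric acid cycle and pyruvate dehydrogenase genes, 2 were called higher and 0 lower (median 0.25), beside 12.8% and 13.1% of all genes, and 0 to 5 were higher over the alternatives. Pdhb, a subunit of pyruvate dehydrogenase, differed by 0.51 ± 0.16 and was called in 5 of 15 alternatives, losing its call without each array except Tis21-GFP negative replicate 2 (0.42 to 0.53 without the others). Of 34 tested assembly factors outside the Ndufaf genes, 2 were higher and 1 lower (median 0.26), beside 12.8% and 13.1% of all genes. Over the alternatives 1 to 5 were higher, with 5 under the replicate block. Cox19, a copper-related assembly factor of complex IV, was higher by 0.70 ± 0.14 (limma adjusted p = 0.00851) and was called in all 15 alternatives. The other higher gene, Sdhaf1, an assembly factor of complex II named after its value was seen, differed by 0.63 ± 0.17 and was called in 5 of 15. Its call was lost at 0.49 to 0.66 with any array left out except Tis21-GFP positive replicate 3. Ttc19, an assembly factor of complex III, differed by -0.59 ± 0.14 and was not called with median centring (-0.41), with Tis21-GFP positive replicate 1 left out (-0.57) or negative replicate 3 left out (-0.52). Of 18 carriers and import genes, 1 was higher and 0 lower (median 0.21), beside 12.8% and 13.1% of all genes. That gene, Tomm22, a receptor of the outer membrane import pore, differed by 0.47 ± 0.14 and was called in 4 of 15 alternatives, and in 0 of those that left out an array.

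Glycolytic genes that were called were lower in positive cells. Of 21 tested, 0 were higher and 4 lower (median -0.11), where 13.1% of all genes were lower, and over the alternatives 4 to 6 were lower. Eno2, the neuronal enolase, had 0.02, 0.13 and 0.06 on the positive arrays and 0.92, 0.80 and 1.11 on the negative arrays, a difference of -0.87 ± 0.14 (limma adjusted p = 0.00299, range over the alternatives 0.000856 to 0.0219). Pfkp, the platelet form of phosphofructokinase, had -1.15, -1.64 and -1.34 on the positive arrays and -0.07, -0.51 and -0.26 on the negative arrays, a difference of -1.10 ± 0.18. Aldoc, the brain aldolase, and Slc2a3, a neuronal glucose transporter, named after their values were seen, differed by -1.54 ± 0.26 and -1.23 ± 0.22. All 4 were lower in each of the 15 alternatives. Aldoc is also a known marker of radial glia and astroglia, whose markers fell in the same cells. Eno2 and Slc2a3 are neuronal forms, and of 12 neuron markers 4 were lower and 5 higher in these cells. The part of such marker changes in the glycolytic values was not tested.

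Among regulators of mitochondrial biogenesis and mitochondrial DNA expression, 2 of 19 were higher and 1 lower (median 0.09), beside 12.8% and 13.1% of all genes, and 0 to 3 were higher over the alternatives. Ppargc1a, the coactivator PGC-1 alpha that raises the transcription of respiratory genes, had -1.65, -2.42 and -2.00 on the positive arrays and 0.17, -0.39 and -0.14 on the negative arrays. The groups did not overlap, and the difference was -1.90 ± 0.23 (limma adjusted p = 0.00093, range over the alternatives 7.6e-05 to 0.00619), with calls in all 15 alternatives at differences of -2.09 to -1.33. Twnk, the mitochondrial DNA helicase, was higher by 0.53 ± 0.15 and was called in 8 of 15 alternatives. Its call was lost at 0.40 to 0.56 without Tis21-GFP positive replicates 1 and 2 and without each of the 3 negative replicates. The other higher gene, Mterf4, a mitochondrial transcription termination family member named after its value was seen, differed by 0.53 ± 0.16 and was called in 5 of 15 alternatives. Its call was lost at 0.39 to 0.58 with any array left out except Tis21-GFP negative replicate 2. In the plot of energy metabolism genes, member differences ran from -0.17 to 0.69 and glycolytic ones from -1.54 to 0.48, with 10 of the 21 glycolytic genes above 0.

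**Figure D5:**
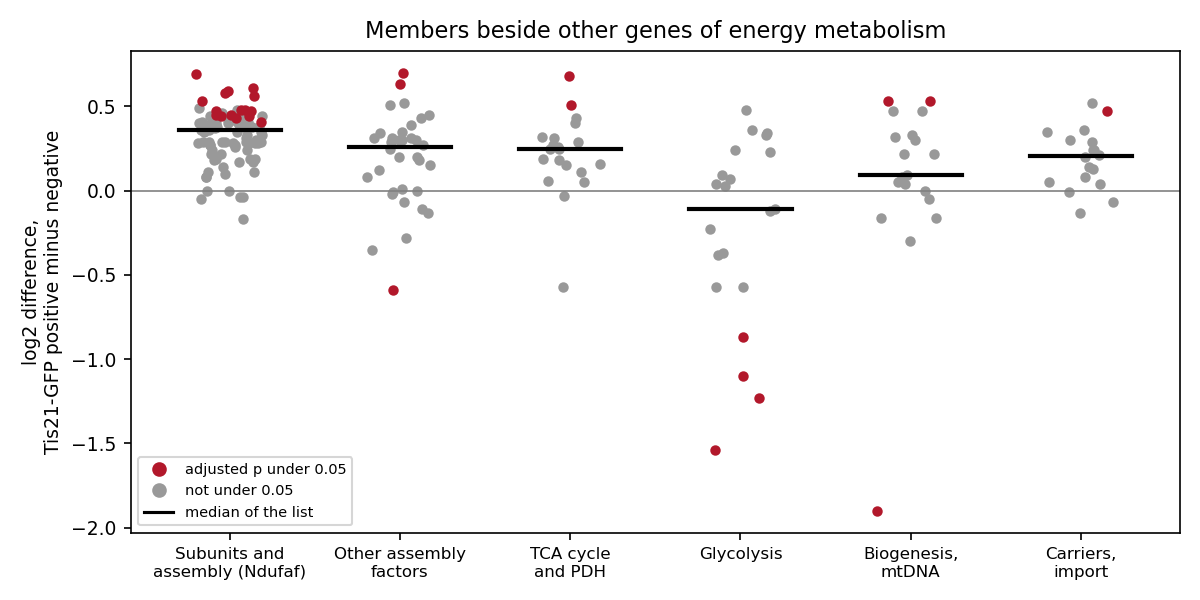
The log2 difference (Tis21-GFP positive minus negative) of each tested gene in the members and in 5 lists of energy metabolism genes; red points have an adjusted p below 0.05 and black bars are medians. Member medians lie at 0.36, and the lowest points of the other lists are Ppargc1a at -1.90 and the glycolytic gene Aldoc at -1.54.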

How the data were processed

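Per the labels' protocols, 50 ng of total RNA was labelled with Cy3 and hybridised to 1-colour Agilent arrays. Intensity values in the scanner files were deposited as processed signals of Agilent Feature Extraction, whose version was 10.7.1.1 per the file headers; no source used here states its background steps. All 6 arrays lay on the same slide. The value table the authors deposited is in log2 units (column medians 4.67 to 4.671, lowest correlation with log2 scanner intensity 0.9995). Its normalization and centring steps are not stated in the sources used here. Its results nearly repeated those of quantile normalization of the scanner intensities. The authors' values gave 1120 genes higher and 1720 lower, and quantile normalization 1127 and 1721. They are thus not separate lines of evidence.

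Outlier spots (118 to 191 per array) were left out, spots of a probe averaged and each array's 75th percentile subtracted. Accessions were matched without versions to RefSeq (GRCm38.p6), which named 26370 probes and left 29311 unnamed. A gene was represented by its brightest probe. limma 3.58.1 (R 4.3.3, group as the only term, Benjamini-Hochberg adjustment) was tested on simulated data. The simulated arrays had no pairing, and their shifts were larger than any member difference. That test thus cannot judge the calls of members. The number of arrays limits the precision. Array correlations were 0.983 to 0.992 within groups and 0.954 to 0.972 across them, and 0 arrays were identical. Deviations of same-numbered arrays correlated at 0.227, 0.133 and 0.374, each above 0.1, so the numbers in the labels were read as pairs. Normexp (offset 50) used the median spot signal in place of the mean signal that was planned. It was followed by quantile normalization, so the 2 steps cannot be told apart in that alternative.

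Members and lists were chosen with earlier results of these data known. Named were up to 4 called members per complex (without a call, the 2 with the largest moderated t), complex II, cytochrome c, tissue isoforms and up to 2 called genes per pathway list; other names were chosen after values were seen. Marker lists are given as counts. A called gene of the citric acid cycle list is not reported here.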

Additional observations from a re-analysis of the deposited data

How the results depend on the processing

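The members' median difference kept its positive sign in all 15 alternatives, and 0 members were called lower by limma in those that left out an array. Counts of calls changed with the scaling. With median centring 29 members and 2347 genes were called higher (complex I 11, complex V 8; 32.1% of all genes with a mean scaled signal of 4 to 6), at a median of 0.54 (complexes I to V 0.52, 0.34, 0.58, 0.56 and 0.55, Ndufaf genes 0.41). With quantile normalization 0 were called in any complex, at a median of 0.11 (0.06, -0.09, 0.12, 0.14 and 0.10), which is 0.09 above all genes. The authors' values gave 0 calls in any complex, 1120 genes higher and a median of 0.10 (0.06, -0.09, 0.12, 0.14 and 0.10), 0.08 above all genes. With the percentile over detected probes 933 genes and 2 members were higher (complexes I and V 0, III and IV 1 each), at a median of 0.18 (0.17, -0.02, 0.23, 0.21 and 0.20, Ndufaf genes 0.06). With normexp followed by quantile normalization 2 members were higher (complexes I and V 0, III and IV 1 each). The median of all members was then 0.10 (0.10, 0.01, 0.15, 0.14 and 0.05), 0.08 above all genes. The complex II median was thus below 0 in 3 scalings, of which quantile normalization and the authors' values nearly repeat each other. The cause was not tested. Without the filter on dim probes 896 genes and 2 members were higher (complexes I and V 0, III and IV 1 each). With a variance trend and robust fit 38 members and 17.9% of all genes were higher (15, 6, 8 and 8 in complexes I, III, IV and V), and with the mean of probes 5 in complex V. With the replicate block 18 members were higher (8 in complex I), beside 2017 genes higher and 1967 lower.

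Leaving out 1 array each gave 761 to 1729 genes higher and 1178 to 1705 lower. Members higher ranged from 1 to 14, with 0 to 5 in complex I, 1 to 3 in III, 0 to 3 in IV and 0 to 2 in V. Their median ranged from 0.29 to 0.43, and from 0.20 to 0.30 relative to all genes. By complex it was 0.29 to 0.41 in I, 0.13 to 0.19 in II, 0.34 to 0.52 in III, 0.29 to 0.45 in IV, 0.30 to 0.43 in V and 0.17 to 0.31 for the Ndufaf genes.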
